A study of Mus musculus with 1298 samples.

Results

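Dorsal neurons of the spinal cord are told apart by the transcription factors they switch on as they are born, and 9 such factors were described here in Pax7-lineage mouse cells. They were chosen by name as Lhx1, Lhx5, Pax2, Ptf1a, Tlx3, Pou4f1, Lhx2, Lhx9 and Nhlh2, out of 15146 genes measured in both single-cell tables, and all 9 were found in both. Embryos carried Pax7CreER, a tamoxifen-inducible Cre made by cells that express Pax7, together with an R26R-stop-EYFP reporter. Their mothers received 75 µg/g tamoxifen at E9.5, and YFP+ cells were sorted at E12.5, at E14.5 or at E16.5 from several embryos pooled, whose heads, limbs and viscera had been cut away. Pax7 is active in the dorsal neural tube as well as in the dermomyotome, so the labelled cells held neural cells besides muscle, dermis and fat. Every group carried the same alleles and the same induction, and no unlabelled or uninduced group was analysed here.

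In the dorsal neural tube, bands of dividing progenitors each give rise to neurons with their own set of transcription factors, and a main division among these neurons is the transmitter they use. Inhibitory neurons release GABA or glycine. They are marked by Pax2, a paired-box factor, and, though not exclusively, by Lhx1 and Lhx5, closely related LIM-homeodomain factors. They are selected by Ptf1a, a helix-loop-helix factor that acts briefly in progenitors. Excitatory neurons release glutamate, and many are marked by the homeodomain factors Tlx3 and Pou4f1, the latter also known as Brn3a. Lhx2 and Lhx9 mark commissural and relay neurons of the dorsalmost band, and Nhlh2 is a helix-loop-helix factor of newly born neurons in general.

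The factors lie at 9 separate places of the mouse genome (GRCm38). Among the inhibitory factors, Lhx1 is at chr11:84518284-84525535 on the minus strand, Lhx5 at chr5:120431699-120441223 and Pax2 at chr19:44756045-44837871, both on the plus strand. Ptf1a is at chr2:19445663-19447501 on the plus strand. Tlx3 is at chr11:33200752-33203589 and Pou4f1 at chr14:104461676-104467999, both on the minus strand. Lhx2 is at chr2:38339281-38369733 on the plus strand, Lhx9 at chr1:138825186-138848577 on the minus strand and Nhlh2, with 1 merged exon, at chr3:102010076-102015492 on the plus strand. Antisense genes overlap Lhx5, Lhx2, Ptf1a and Pax2, and the Smart-seq2 reads of a gene and of its antisense partner cannot be told apart.

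Promoters (RefSeq, GRCm38.p6, 250 bases before to 50 after the start) were found for 8 of the 9 genes, in 11 windows. They are shown for the factors that divided by transmitter in the cells, Lhx1 and Pax2 on the inhibitory side and Tlx3 and Pou4f1 on the excitatory side, and for Nhlh2, which was found on both. Capitals mark the letters CANNTG, the E-box bound by helix-loop-helix factors such as Ptf1a and Nhlh2, which reads the same on both strands. The windows lie at chr11:84525485-84525784 (minus strand) for Lhx1, chr19:44755502-44755801 (plus) for Pax2, chr11:33203539-33203838 (minus) for Tlx3, chr14:104467950-104468249 (minus) for Pou4f1 and chr3:102009895-102010194 (plus) for Nhlh2.
Lhx1: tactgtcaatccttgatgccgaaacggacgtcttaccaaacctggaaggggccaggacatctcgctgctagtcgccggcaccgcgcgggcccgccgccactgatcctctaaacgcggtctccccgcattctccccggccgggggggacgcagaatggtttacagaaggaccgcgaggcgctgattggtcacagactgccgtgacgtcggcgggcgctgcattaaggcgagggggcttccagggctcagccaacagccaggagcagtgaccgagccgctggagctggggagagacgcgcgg
Pax2: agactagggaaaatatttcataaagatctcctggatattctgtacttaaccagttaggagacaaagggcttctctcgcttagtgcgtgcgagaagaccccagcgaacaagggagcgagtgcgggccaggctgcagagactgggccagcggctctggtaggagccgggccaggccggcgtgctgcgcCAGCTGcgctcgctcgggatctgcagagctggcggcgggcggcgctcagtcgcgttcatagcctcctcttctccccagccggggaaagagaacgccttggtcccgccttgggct
Tlx3: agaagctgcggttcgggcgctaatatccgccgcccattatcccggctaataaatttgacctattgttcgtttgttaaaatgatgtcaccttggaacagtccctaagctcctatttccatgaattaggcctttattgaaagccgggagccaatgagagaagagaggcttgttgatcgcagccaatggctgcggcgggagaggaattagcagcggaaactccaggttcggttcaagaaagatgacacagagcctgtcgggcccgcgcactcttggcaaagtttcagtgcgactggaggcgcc
Pou4f1: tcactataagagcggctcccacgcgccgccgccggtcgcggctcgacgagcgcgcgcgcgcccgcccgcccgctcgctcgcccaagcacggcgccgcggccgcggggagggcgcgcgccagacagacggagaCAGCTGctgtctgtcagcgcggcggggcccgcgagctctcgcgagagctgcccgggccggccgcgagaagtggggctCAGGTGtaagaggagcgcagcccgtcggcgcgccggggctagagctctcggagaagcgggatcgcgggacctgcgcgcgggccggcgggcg
Nhlh2: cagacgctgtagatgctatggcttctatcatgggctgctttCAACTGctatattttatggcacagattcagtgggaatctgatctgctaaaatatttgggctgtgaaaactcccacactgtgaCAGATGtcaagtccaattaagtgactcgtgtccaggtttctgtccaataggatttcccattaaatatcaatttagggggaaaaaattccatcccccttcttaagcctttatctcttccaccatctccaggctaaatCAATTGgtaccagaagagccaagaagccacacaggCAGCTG
The window of Nhlh2 held 4 matches, that of Pou4f1 2, the Pax2 window shown 1, and those of Lhx1 and Tlx3 0 each. Pax2 also had windows at chr19:44746351-44746650 and chr19:44756656-44756955, not shown here, which held 0 and 2 matches. At least 1 match was found in 6 of the 11 windows of the factors, beside 72.3% of 32851 promoter windows of the same length. The homeodomain core TAATTA, which also reads the same on both strands, was found in 0 of the 11 windows and in 5.29% of all windows.

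Each day had been measured on 10x droplets, which count molecules by unique molecular identifiers (UMIs) at the 3' end, and with Smart-seq2, which reads whole transcripts of cells sorted into plates. After filtering, 3852 of 3916 cells were kept, with library medians of 1608 to 5930 UMIs per cell on 10x and of 393416 to 829590 counts on Smart-seq2, and 3 cell barcodes were shared between 10x libraries. Cells were clustered without the 9 factors and without the other dorsal, ventral and transmitter genes described here. By their markers 710 cells were neuron-like, with 83 on Smart-seq2 at E12.5 and 92 on 10x at E14.5, and the progenitor-like cells numbered 43 on Smart-seq2 at E12.5 and 17 on 10x and 11 on Smart-seq2 at E14.5. The 10x pool of E12.5 was the largest of both classes. E16.5 held only 2 neuron-like cells on 10x and 7 on Smart-seq2 and entered no comparison. Each day was treated as 1 pool on each platform, which was 1 10x library or all Smart-seq2 cells of that day. The pair of platforms was then the only repeat of a day. How many groups of embryos the Smart-seq2 plates of a day came from is not given. Levels are sums over the cells of a class in counts scaled to a common total (CPM), and intervals are 95% exact intervals for counting error only. In such sums, fewer cells with a factor and less RNA per cell cannot be told apart, so shares of cells are given beside the levels a comparison turns on.

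All 9 neuronal markers were detected in the neuron-like cells, with a summed level of 6207 to 9791 CPM over the 4 pools of E12.5 and E14.5, against 487.5 to 1200 CPM in the progenitor-like cells. The 8 progenitor markers summed to 2113 to 19085 CPM in progenitor-like cells and to 90.5 to 966 CPM in neuron-like cells. Pou4f1 and Tlx3 also mark sensory ganglion neurons, which lie outside the spinal cord. Of the ganglion markers, 4 of 5 were detected in neuron-like cells on 10x at E12.5, with a summed level of 47.6 CPM and Avil at 0, and none at E14.5. On Smart-seq2, 2 of 4 were detected on each day, with 17.5 CPM at E12.5, where Prph and Avil were at 0, and 4.51 CPM at E14.5, where Prph was at 0.

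Per length of transcript, the levels summed over Smart-seq2 neuron-like cells of all days, an order that depends on the mix of days, ran from Lhx5 (80.8 CPM per kb), Nhlh2 (64.4), Lhx1 (47.7) and Pax2 (39.8) down to Pou4f1 (19.2), Lhx9 (6.51), Tlx3 (5.40), Lhx2 (1.78) and Ptf1a (1.21 CPM per kb). On 10x, where a molecule is counted once whatever its length, the order differed by day. At E12.5 Lhx1 was first at 346.2 UMI CPM (317.5 to 376.7) and Nhlh2 next at 254.8 (230.3 to 281.2), before Pax2, Lhx5, Pou4f1 and Tlx3, among which neighbours had overlapping intervals. At E14.5 Nhlh2 (295.99 UMI CPM, 237.7 to 364.2), Pou4f1 (282.7, 225.8 to 349.5) and Tlx3 (272.7, 216.9 to 338.5) were first, with overlapping intervals, and Lhx5, Pax2 and Lhx1 lay below them.

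**Figure D1:**
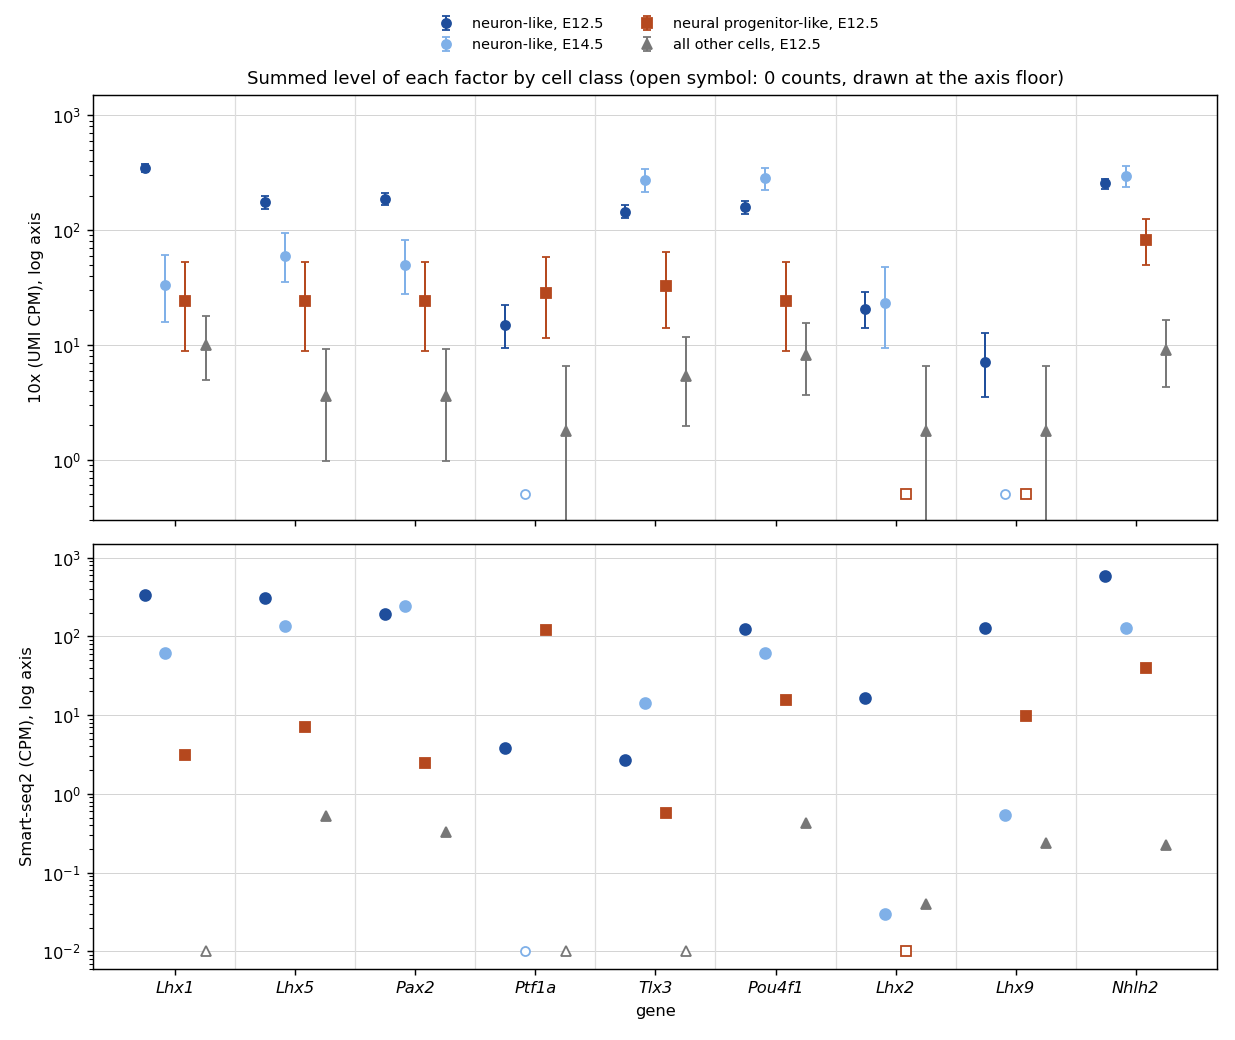
Level of each factor, summed over the cells of a class, on 10x (top, UMI CPM with 95% exact Poisson intervals) and Smart-seq2 (bottom, CPM), both on log axes; open symbols stand for 0 counts. At E12.5 the neuron-like cells (dark circles) lie above the progenitor-like cells (squares) for every factor but Ptf1a, though for Lhx9 on 10x by 11 UMIs to 0. Ptf1a is at 120.7 CPM in progenitor-like and 3.83 CPM in neuron-like cells on Smart-seq2.

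The first comparison asked which factors set neurons apart from progenitors. At E12.5, 7 factors were at a higher level in neuron-like cells on both platforms, and Lhx9 was on Smart-seq2. Ptf1a was at a higher level in progenitor-like cells on Smart-seq2. On 10x neither Lhx9 nor Ptf1a differed detectably between the classes. On Smart-seq2 the intervals of the shares of cells overlapped between the classes for Lhx2, Lhx9 and Tlx3. Lhx1 was at 346.2 UMI CPM (317.5 to 376.7) in neuron-like and 24.4 UMI CPM (8.95 to 53.1) in progenitor-like cells on 10x, and at 338.8 and 3.10 CPM on Smart-seq2. It was detected in 54.3% (49.3 to 59.3%) of neuron-like cells on 10x and in 51 of 83 on Smart-seq2, and in 2.34% and 3 of 43 progenitor-like cells. Lhx5 was at 174.4 and 24.4 UMI CPM on 10x and at 308.6 and 7.13 CPM on Smart-seq2. Pax2 was at 187.9 and 24.4 UMI CPM and at 195.4 and 2.50 CPM, with counts in 41.4% of neuron-like cells on 10x and in 46 of 83 on Smart-seq2. The intervals of the classes did not overlap on 10x for any of these 3 inhibitory factors.

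Ptf1a, which acts in progenitors, went the other way. On Smart-seq2 it was at 120.7 CPM in progenitor-like and 3.83 CPM in neuron-like cells, with counts in 15 of 43 (34.9%, 21.01 to 50.9%) and 6 of 83 cells (7.23%, 2.70 to 15.1%). On 10x the levels were 28.4 and 14.8 UMI CPM, from 7 and 23 UMIs, a ratio of neuron-like to progenitor-like of 0.520 (0.216 to 1.44), so that no difference was detectable at this depth. At E14.5 no count of Ptf1a was found in any neuron-like or progenitor-like cell on either platform, which allows a share of neuron-like cells with a count of up to 3.93% on 10x and 2.95% on Smart-seq2.

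The excitatory factors and Nhlh2 stood higher in neuron-like cells. Pou4f1 was at 157.6 and 24.4 UMI CPM in neuron-like and progenitor-like cells on 10x, and at 125.3 and 15.6 CPM on Smart-seq2. Tlx3 was at 144.8 and 32.5 UMI CPM on 10x but at only 2.67 and 0.572 CPM on Smart-seq2, where 6 of 83 neuron-like and 1 of 43 progenitor-like cells had a count. The intervals of these shares overlapped (2.70 to 15.1% and 0.0589 to 12.3%). Nhlh2 was at 254.8 and 81.3 UMI CPM and at 586.3 and 40.2 CPM. It was the factor most often seen in progenitor-like cells on 10x (11.7%), and it was in 52.1% of neuron-like cells there and in 72 of 83 on Smart-seq2.

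Lhx2 and Lhx9, the factors of the dorsalmost neurons, were rare. Lhx2 had counts in 4.71% of neuron-like cells on 10x and in 7 of 83 on Smart-seq2, and in no progenitor-like cell on either. On 10x the ratio of neuron-like to progenitor-like had a lower limit of 1.30, and on Smart-seq2 the intervals of the shares overlapped (3.46 to 16.6% and 0 to 8.22%). Lhx9 was at 7.08 UMI CPM, in 2.48% of neuron-like cells, and at 127.7 CPM, in 29 of 83. In progenitor-like cells it had 0 UMIs, which gave a lower limit of the ratio of 0.397, and 9.77 CPM, in 8 of 43 cells. The Smart-seq2 intervals of its shares overlapped (24.8 to 46.2% and 8.39 to 33.4%). At 10 or more counts it was in 7 of 83 neuron-like and 1 of 43 progenitor-like cells.

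Counts of these genes in cells of other kinds give the background. On 10x at E12.5 the 9 factors had a UMI in 0.412% to 1.65% of all other cells, at 1.80 to 9.91 UMI CPM, where the median depth was 1806 UMIs per cell, against 3229 in neuron-like and 1622 in progenitor-like cells. On Smart-seq2 at E12.5, Lhx5 had at least 1 count in 18.6% of other cells, Lhx9 in 7.98% and Pou4f1 in 7.45%, at levels of up to 0.516 CPM. These 3 were therefore also read at 10 or more counts, where Lhx9 was in 7 neuron-like cells rather than 29, Pou4f1 in 19 rather than 42 and Lhx5 in 53 rather than 64. Lhx1, by contrast, was in 50 and 51 and Pax2 in 46 and 46.

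Summed counts of both classes at E12.5 were tested across 13004 genes with edgeR's quasi-likelihood test, with the pool as a block. It called 1444 genes, 11.1% of those tested, at an adjusted p under 0.05, with 6.67% higher and 4.43% lower in neuron-like cells. All 9 factors passed the filter on low counts, 8 of them were called higher in neuron-like cells, and Ptf1a was called lower. The log2 fold change was 5.79 ± 0.57 (SE) for Lhx1, 5.17 ± 0.63 for Pax2 and 4.55 ± 0.53 for Lhx5. It was 3.69 ± 0.69 for Lhx9, 2.86 ± 0.44 for Nhlh2, 2.85 ± 0.38 for Pou4f1 and 2.15 ± 0.42 for Tlx3, and −3.43 ± 0.81 for Ptf1a. The adjusted p by edgeR ran from 4.29e-06 for Lhx1 to 0.01004 for Ptf1a. The median over the 9 factors was 3.69, beside 0.08 over all genes tested. With 1 residual degree of freedom, edgeR's bias-adjusted version of the test called 0 genes (4192 at an unadjusted p under 0.05, all 9 factors among them). With sums of at least 10 cells, which add the E14.5 pools, 7.8% of genes were called higher and 3.15% lower, and Lhx9 and Ptf1a were no longer called (edgeR adjusted p = 0.0976 and 0.158). With a finer clustering, Lhx2, Lhx9, Ptf1a, Tlx3 and Nhlh2 were no longer called.

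Other genes of dorsal patterning were read in the same fit, from lists chosen with earlier results known. Of 13 dorsal progenitor and proneural factors tested, 6 were lower in neuron-like cells and 1, Dbx1, was higher. Among the lower ones were Msx2, a homeobox factor of the dorsal midline (log2 fold change −3.93 ± 0.79), and Gsx2 (−3.00 ± 0.81) and Gsx1 (−2.50 ± 0.39), homeobox factors of dorsal progenitors. Of 14 other dorsal neuron factors 8 were higher and 0 lower, among them Otp (6.10 ± 0.96), a homeodomain factor, with Lmx1b, Gbx1 and Pou4f2. Of 11 factors that mark neurons by their time of birth 6 were higher and 2 lower, and of 8 ventral neuron factors 1, Gata2, was higher. All 4 inhibitory transmitter genes and Slc17a6, the vesicular glutamate transporter, were higher in neuron-like cells.

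The progenitor-like cells were led by Aldoc, Fabp7, Bcan, Hes5 and Slc6a11, of which Aldoc and Slc6a11 are also known from astrocytes. With the finer clustering, 16 cells of E14.5 formed a cluster led by Aldoc, Slc6a11, Bcan, Aldh1l1 and Hepacam, genes of astrocytes, which still passed the progenitor markers. No list of astrocyte markers had been set, and the part of such cells in the E14.5 values was not tested. At E14.5 few counts of the factors were found in the progenitor-like cells. On 10x, 17 cells held 1 UMI of Lhx5 and 1 of Pou4f1 and none of the others. On Smart-seq2, 11 cells had counts of Lhx5 (0.340 CPM), Lhx9 (0.341 CPM) and Nhlh2 (0.680 CPM) and none of the others. These pools were too small to show that a factor was absent.

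The next comparison asked how the factors in neurons differed by day. Neuron-like cells of E12.5 were all of 1 cluster, led by Lhx1, Npy, Sst and Otp. At E14.5 they were spread over that cluster (27 cells on 10x and 37 on Smart-seq2), another led by Grp, Gpr26, Slc17a6 and Lmx1b (45 and 58 cells) and another led by Pnoc, Hbb-bs, a blood globin, and Kcnc2 (20 and 28 cells), so a difference between days is also one in this make-up. Lhx1 was at 346.2 UMI CPM at E12.5 and 33.3 (15.9 to 61.2) at E14.5 on 10x, in 54.3% and 6.52% of cells. On Smart-seq2 it was at 338.8 and 62.2 CPM, in 61.4% and 24.4% of cells. Lhx5 was at 174.4 and 59.9 UMI CPM on 10x, in 40.7% and 13.04% of cells, and at 308.6 and 135.2 CPM on Smart-seq2, in 77.1% and 55.3%. Both factors were lower at E14.5 on both platforms, with ratios of E14.5 to E12.5 on 10x of 0.0961 (0.0458 to 0.178) for Lhx1 and 0.343 (0.200 to 0.553) for Lhx5.

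For Pax2 and Pou4f1 the levels differed between days in opposite directions on the 2 platforms, which was not tested. The shares of cells with them, and with Nhlh2, were lower at E14.5 on both platforms before depth was matched. Pax2 was at 187.9 UMI CPM at E12.5 and 49.9 at E14.5 on 10x (ratio of E14.5 to E12.5 0.266, 0.147 to 0.445), but at 195.4 and 244.9 CPM on Smart-seq2. Pou4f1 was at 157.6 and 282.7 UMI CPM on 10x (ratio 1.79, 1.38 to 2.30), but at 125.3 and 61.3 CPM on Smart-seq2. The share of cells with Pax2 was 41.4% and 10.9% on 10x and 55.4% and 43.1% on Smart-seq2, and that with Pou4f1 30.8% and 26.1% on 10x and 50.6% and 34.1% on Smart-seq2. On 10x the intervals of the Pou4f1 shares overlapped (26.3 to 35.5% and 17.5 to 36.3%). After thinning to equal depth the order of these shares turned, with Pou4f1 in 11.8% of 10x cells at E12.5 and 20.9% at E14.5. Their intervals overlapped too (8.68 to 15.6% and 13.1 to 30.7%), so a smaller share at E14.5 was not shown. Nhlh2 was at 254.8 and 295.99 UMI CPM on 10x, a ratio of 1.16 whose interval held 1 (0.912 to 1.47), in 52.1% and 43.5% of cells. After the same thinning it was in 21.3% and 25.3% of 10x cells without Ptf1a, with overlapping intervals (17.2 to 25.9% and 16.7 to 35.5%). On Smart-seq2 it was at 586.3 and 128.7 CPM, in 86.7% and 58.5%. Tlx3, in contrast, was higher at E14.5 on both. It was at 144.8 and 272.7 UMI CPM on 10x (ratio 1.88, 1.44 to 2.44), in 30.3% and 38.04% of cells. On Smart-seq2 it was at 2.67 and 14.2 CPM, in 7.23% and 21.95% of cells. The intervals of these shares overlapped, at 25.8 to 35.02% and 28.1 to 48.8% on 10x. On Smart-seq2 they did so narrowly, at 2.70 to 15.07% and 14.99 to 30.3%.

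The rarer factors were mostly at or near 0 by E14.5. Lhx9 was at 127.7 CPM at E12.5 and 0.547 CPM at E14.5 on Smart-seq2, and on 10x it had 11 UMIs at E12.5 and 0 in 92 cells at E14.5. Lhx2 was at 16.45 and 0.0298 CPM on Smart-seq2, whereas on 10x it was at 20.6 and 23.3 UMI CPM, from 19 and 2 cells, a ratio of 1.13 whose interval, 0.421 to 2.61, held 1. Ptf1a had counts in 21 cells on 10x and 6 on Smart-seq2 at E12.5 and in none at E14.5. The ratio of E14.5 to E12.5 on 10x had an upper limit of 0.899, and on Smart-seq2 the intervals of the shares overlapped (2.70 to 15.1% and 0 to 2.95%).

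In edgeR's quasi-likelihood test of E14.5 against E12.5, with platform as a covariate, 450 of 13472 genes (3.34%) were called, 1.63% higher and 1.71% lower at E14.5. Of the 9 factors, Lhx1 (log2 fold change −2.83 ± 0.41, SE), Lhx5 (−1.38 ± 0.38), Lhx2 (−4.56 ± 1.33), Lhx9 (−7.90 ± 0.83) and Ptf1a were called lower and Tlx3 (1.65 ± 0.38) higher. For Pou4f1 (−0.20 ± 0.38), Pax2 (−0.62 ± 0.39) and Nhlh2 (−1.09 ± 0.40) which were not called, the edgeR adjusted p was 0.987, 0.667 and 0.135. The median over the 9 factors was −1.38, beside −0.05 over all genes tested. The bias-adjusted test called 0 genes in this fit as well (2824 at an unadjusted p under 0.05, 6 factors among them).

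Smart-seq2 plates showed the spread within a day. Plates with at least 10 neuron-like cells numbered 2 at E12.5 (21 and 53 cells) and 4 at E14.5 (29, 22, 30 and 42 cells). No sequencing batch held plates of both days, so batch and day cannot be told apart. Lhx1 was at 229.9 and 403.4 CPM in the E12.5 plates and at 77.5, 44.8, 79.2 and 63.05 CPM in the E14.5 plates. Lhx5 was at 273.3 and 331.003 CPM against 85.3, 160.1, 133.2 and 147.3 CPM, and Nhlh2 at 798.9 and 450.6 CPM against 86.2, 104.002, 172.4 and 175.2 CPM. For these 3 factors both E12.5 plates lay above every E14.5 plate. Pax2 overlapped between days, at 73.2 and 266.6 CPM against 169.5, 362.2, 198.05 and 184.2 CPM, as did Pou4f1, at 47.7 and 172.2 CPM against 11.9, 53.4, 169.96 and 62.4 CPM. Tlx3 was at 3.70 and 2.12 CPM at E12.5 and at 13.3, 22.5, 3.78 and 9.52 CPM at E14.5, all above the E12.5 values though by little for 1 plate. The E12.5 value of Lhx9 rested mainly on 1 plate, with 329.1 and 10.7 CPM, and the E14.5 plates were at 0.631, 0.399, 0.378 and 0.740 CPM. With plates as the unit, the edgeR test called 2 of 13185 genes (0.0152%, both higher at E14.5, 1651 at an unadjusted p under 0.05) and no factor. The adjusted p by edgeR was 0.09503 for Lhx1, 0.09503 for Lhx9 and 0.102 for Nhlh2. The bias-adjusted test on plates called 120 genes, 3 factors among them.

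**Figure D2:**
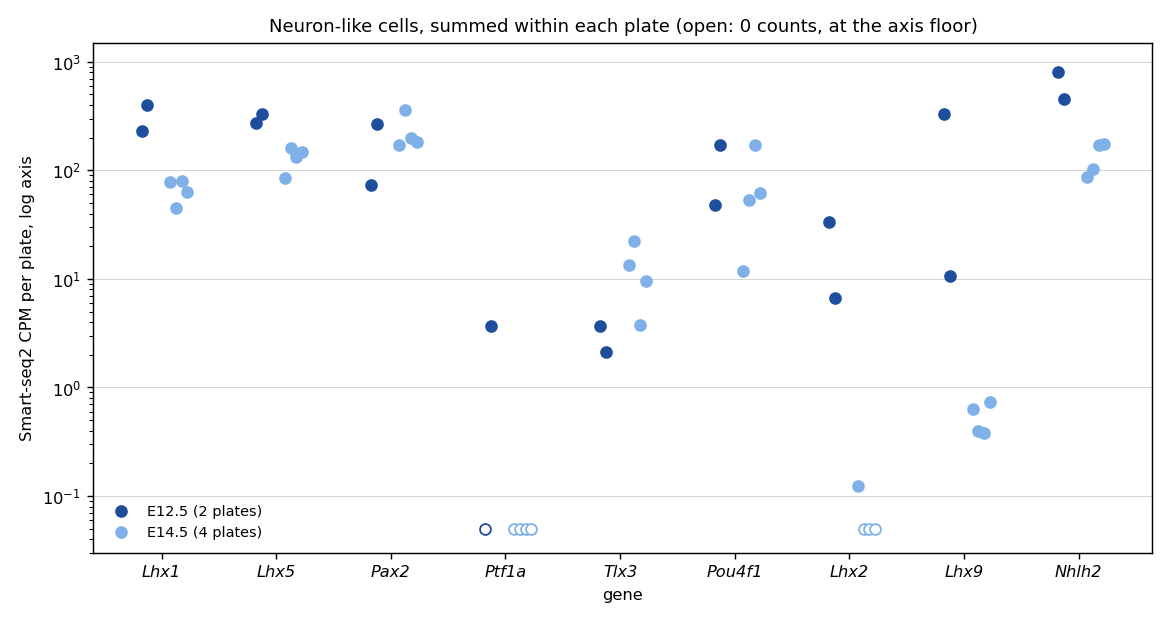
Level of each factor in neuron-like cells of each Smart-seq2 plate with at least 10 such cells (CPM, log axis), 2 plates at E12.5 (dark) and 4 at E14.5 (light); open symbols stand for 0 counts. Lhx1, Lhx5, Lhx9 and Nhlh2 are higher in both E12.5 plates than in any E14.5 plate, while the plates of Pax2 and Pou4f1 overlap between days.

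Within E14.5 the factors divided between the clusters, which had been formed without them, and these values were not tested. On Smart-seq2, Pax2 was at 408.6 CPM in the first cluster and 560.8 CPM in the Pnoc cluster but at 0.0204 CPM in the Grp cluster, with counts in 1 of 58 cells there. Lhx5 was at 186.5 and 354.3 CPM against 0.591 CPM. Lhx1 was mainly in the first cluster, at 212.1 CPM, against 14.3 CPM in the Pnoc and 0.0204 CPM in the Grp cluster. The excitatory factors were highest in the Grp cluster. Tlx3 was at 26.8 CPM in the Grp cluster, 4.15 CPM in the first and 0 in the Pnoc cluster. Pou4f1 was at 92.2 CPM in the Grp, 58.96 CPM in the first and 0.0423 CPM in the Pnoc cluster. On 10x, Lhx1 likewise had 0 UMIs in 45 cells of the Grp cluster and Pou4f1 0 in 20 cells of the Pnoc cluster, whereas Tlx3 had 10 UMIs there, from 2 cells. Nhlh2 was found in all 3 clusters on both platforms.

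Among the other listed genes in the edgeR test of days on pools, which called 1.63% of all genes higher and 1.71% lower, 8 of 13 dorsal progenitor and proneural factors were lower at E14.5 and 0 higher, including Pax7 itself (log2 fold change −7.61 ± 1.37), and 3 of 7 ventral neuron factors were lower. Of 15 other dorsal neuron factors 5 were lower, among them Prdm13, which acts downstream of Ptf1a (−3.05 ± 0.76), and Otp (−2.78 ± 0.65), and 1 was higher. Of 11 factors of birth time 5 were higher, led by Nfix (6.09 ± 0.50) and Nfib (3.65 ± 0.44), nuclear factor I genes of later-born neurons. The 4 that were lower were led by Onecut1 (−6.85 ± 1.16) and Zfhx3 (−3.56 ± 0.42), which mark earlier-born neurons. None of the 5 transmitter genes tested was called. With plates as the unit, the edgeR test called 0 genes of any of these lists.

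The last comparison asked how the factors divided between transmitter types. A neuron-like cell was counted as inhibitory with a count of Gad1, Gad2 or Slc32a1, the enzymes and the vesicular transporter of GABA, and none of Slc17a6, and as excitatory with Slc17a6 and none of those 3. The pools with at least 20 cells of both types were the 10x pool of E12.5, with 20 excitatory cells and several times as many inhibitory ones, and the Smart-seq2 pool of E14.5, with 56 inhibitory and 53 excitatory cells. In the 10x pool more cells had no count of any of these 4 genes than were of either type.

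Pax2, Lhx1 and Lhx5 stood on the inhibitory side. In the E14.5 Smart-seq2 pool Pax2 was at 534.3 CPM in inhibitory cells, with counts in 51 of 56 (91.1%), and at 0 in the 53 excitatory cells. Lhx1 was at 132.5 CPM in inhibitory and 0.0241 CPM in excitatory cells, with counts in 28 of 56 and 1 of 53. Lhx5 was at 297.9 and 0.6999 CPM, with counts in 53 of 56 and 12 of 53. In the E12.5 10x pool the gaps were smaller, and of the 20 excitatory cells 10 had a count of Lhx1 and 8 of Lhx5. Lhx1 was at 471.1 and 165.8 UMI CPM, a ratio of 2.84 (1.67 to 5.25), and Pax2 at 262.2 and 82.9 UMI CPM, a ratio of 3.16 (1.505 to 7.97). Lhx5 was at 217.3 and 130.3 UMI CPM, a ratio whose interval, 0.907 to 3.41, held 1.

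Tlx3 and Pou4f1 stood on the excitatory side. In the E14.5 Smart-seq2 pool Tlx3 was at 0 in the 56 inhibitory cells and at 27.99 CPM in excitatory cells, with counts in 20 of 53 (37.7%). Pou4f1 was at 119.01 CPM in excitatory and 0.154 CPM in inhibitory cells, with counts in 30 of 53 and 5 of 56. In the E12.5 10x pool the inhibitory to excitatory ratios of both had intervals that held 1, 0.340 to 1.17 for Tlx3 (100.95 and 165.8 UMI CPM) and 0.350 to 1.03 for Pou4f1 (124.8 and 213.2 UMI CPM). Nhlh2 was found on both sides, at 253.8 and 296.1 UMI CPM on 10x (ratio interval 0.562 to 1.36) and at 172.7 and 58.8 CPM on Smart-seq2.

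The smaller pools had under 20 cells of 1 type. In the E12.5 Smart-seq2 pool, of 45 inhibitory and 12 excitatory cells, Lhx1 had counts in 45 of 45 and 3 of 12, Pax2 in 43 of 45 and 0 of 12 and Lhx5 in 45 of 45 and 7 of 12. Pou4f1 was at 0.478 CPM in inhibitory and 321.2 CPM in excitatory cells, with the same order as in the larger pools. Lhx9 was at 0.303 and 352.9 CPM, but in like shares of cells, 13 of 45 and 4 of 12, and in the E14.5 Smart-seq2 pool it was at 0.815 and 0.386 CPM. In the E14.5 10x pool, of 20 and 11 cells, Tlx3 had 0 UMIs in inhibitory and 15 in excitatory cells, with a lower limit of 7.10 for the ratio of excitatory to inhibitory, and Pou4f1 0 and 9. Lhx5 had 11 and 0 UMIs and Pax2 6 and 0.

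**Figure D3:**
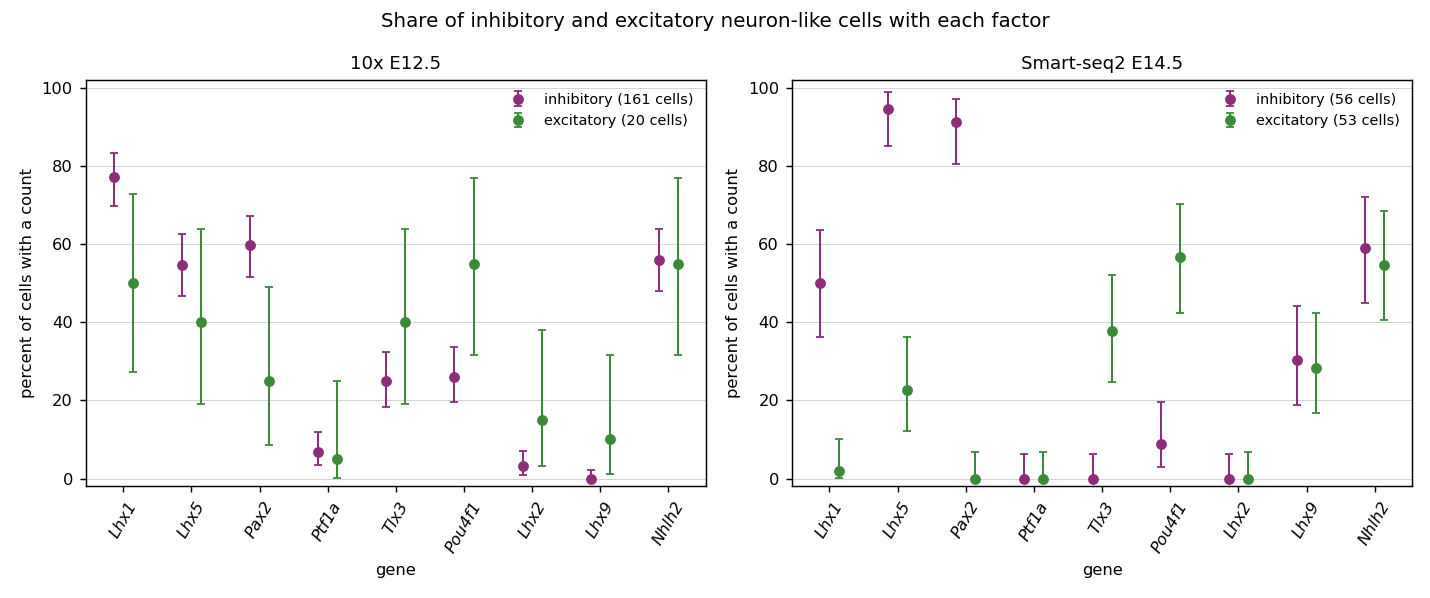
Share of inhibitory (purple) and excitatory (green) neuron-like cells with a count of each factor, in percent with 95% exact binomial intervals, in the 10x pool of E12.5 and the Smart-seq2 pool of E14.5. In the Smart-seq2 pool Pax2 is in 91.1% of inhibitory and 0% of excitatory cells and Tlx3 in 0% and 37.7%, and in the 10x pool Pax2 is in 59.6% and 25%.

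In edgeR's quasi-likelihood test of inhibitory against excitatory sums, with the pool as a block, 2.08% of 12650 genes were called, 1.3% higher and 0.775% lower in inhibitory cells. 7 of the 9 factors passed the filter, and Lhx2 and Ptf1a did not. Lhx1 (log2 fold change 6.44 ± 0.51, SE), Lhx5 (6.31 ± 0.57) and Pax2 were called higher, and Pou4f1 (−4.89 ± 0.56) and Tlx3 (−4.31 ± 0.65) lower. Nhlh2 (0.83 ± 0.32) and Lhx9 (−1.01 ± 1.90) were not called (edgeR adjusted p = 0.212 and 0.999). This fit too had 1 residual degree of freedom. DESeq2 kept only Pou4f1 among the 5, and the bias-adjusted test called 0 genes (3410 at an unadjusted p under 0.05, 1 factor among them). With sums of at least 10 cells 0.262% of genes were called higher and 0.0795% lower, Lhx1, Pax2 and Pou4f1 among them, and Lhx5 and Tlx3 were not (edgeR adjusted p = 0.252 and 0.155).

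In the same test of sums of at least 20 cells, Gbx1 (log2 fold change 6.54 ± 0.83), Gbx2 (8.85 ± 0.73) and Pax8 (6.11 ± 0.56), factors known from dorsal inhibitory neurons, were higher in inhibitory cells, and Lmx1b, a LIM-homeodomain factor found with Tlx3, was lower (−6.36 ± 0.78). In all 3 of 12 other dorsal neuron factors were higher and 2 lower, beside 1.3% and 0.775% of all genes. Of 7 dorsal progenitor and proneural factors 2 were higher, among them Pax3 (2.20 ± 0.54). Of 11 factors of birth time 3 were higher, Neurod1, Neurod2 and Neurod6, and of 4 ventral neuron factors none was called. Slc6a5, the glycine transporter, which was not used to make the groups, was higher in inhibitory cells (10.09 ± 0.67). With sums of at least 10 cells, 3 other dorsal neuron factors were called higher and 0 lower, 0 dorsal progenitor and proneural factors were called (edgeR adjusted p = 0.224 for Pax3) and 1 factor of birth time, Neurod6, was called higher, so that Lmx1b, Neurod1 and Neurod2 lost their calls.

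Factors of the same side were found in the same cells. On Smart-seq2 at E12.5, 50 of 51 neuron-like cells with Lhx1 also had Lhx5 and 45 of 51 (88.2%, 76.1 to 95.6%) had Pax2, which was in 1 of 32 cells without Lhx1. Lhx5 was the wider marker at 1 or more counts, present in 46 of 46 cells with Pax2, while Pax2 was in 46 of 64 cells with Lhx5. Read at 10 or more counts, Lhx5 was in 53 neuron-like cells of that day and Pax2 in 46, a smaller gap. At E14.5, 27 of 30 cells with Lhx1 had Pax2, but Pax2 was then also in 26 of 93 cells without Lhx1 (27.96%). Of the cells with Pax2, 43 of 46 at E12.5 and 53 of 53 at E14.5 had a count of an inhibitory gene, and 0 of 46 and 2 of 53 one of Slc17a6.

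Factors of opposite sides were seldom found together on Smart-seq2. Tlx3 was in 0 of 46 cells with Pax2 at E12.5 and in 0 of 53 at E14.5, against 6 of 37 and 27 of 70 cells without it. At 10 or more counts, Pou4f1 was in 2 of 46 cells with Pax2 at E12.5 and in 0 of 50 at E14.5, against 17 of 37 and 31 of 73 cells without it. At 1 or more counts Pou4f1 and Pax2 shared more cells, 19 of 42 cells with Pou4f1 at E12.5. Of the cells with Tlx3 at E14.5, 26 of 27 (96.3%) had Slc17a6, and 13 of 27 had Pou4f1, so that the excitatory factors overlapped in part.

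On 10x at E12.5 this separation was not seen before depth was matched. At equal depth Tlx3 was in a smaller share of cells with Lhx1 than without, but not for Pax2, which was not tested. Tlx3 was in 34.7% (27.5 to 42.5%) of cells with Pax2 and in 27.1% (21.6 to 33.3%) of cells without, and Pax2 in 44.4% of cells with Pou4f1 and in 40.1% of cells without. Cells with Pax2 were deeper than those without, with medians of 4256 and 2510 UMIs. After thinning every cell to 1000 UMIs, Tlx3 was in 8 of 64 cells with Pax2 and in 11.3% of those without, in 4 of 93 cells with Lhx1 (4.30%) and in 14.02% of those without. 11 cells of this pool had UMIs of Lhx1, Lhx5, Pax2, Tlx3, Pou4f1 and Nhlh2 together. Of the 1017 cells of this library, of all classes, 8 were called doublets. Leaving them out left the share of cells with Tlx3 that also had Pax2 within its interval, which so few cells could hardly change. Whether the 11 cells were doublets was not tested.

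Before depth was matched, factors of the same side were found together more often on 10x at E12.5. Pax2 was in 55.3% of cells with Lhx1 and 25% of those without, Lhx5 in 52.97% and 26.1%, and Tlx3 in 56.5% of cells with Pou4f1 and 18.6% of those without. Cells with Lhx1 were also deeper, with medians of 3999 and 2538 UMIs. After thinning, Pax2 was in 22.6% of cells with Lhx1 and 15.9% of those without, a difference that was not tested. The shares of Lhx5 with Lhx1 and of Tlx3 with Pou4f1 are given here without thinning, so depth may enter them. At E14.5 on 10x the sides shared few cells, with Tlx3 in 0 of 12 and Pou4f1 in 0 of 12 cells with Lhx5, which allows shares of up to 26.5%, and Pax2 in 2 of 35 cells with Tlx3.

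**Figure D4:**
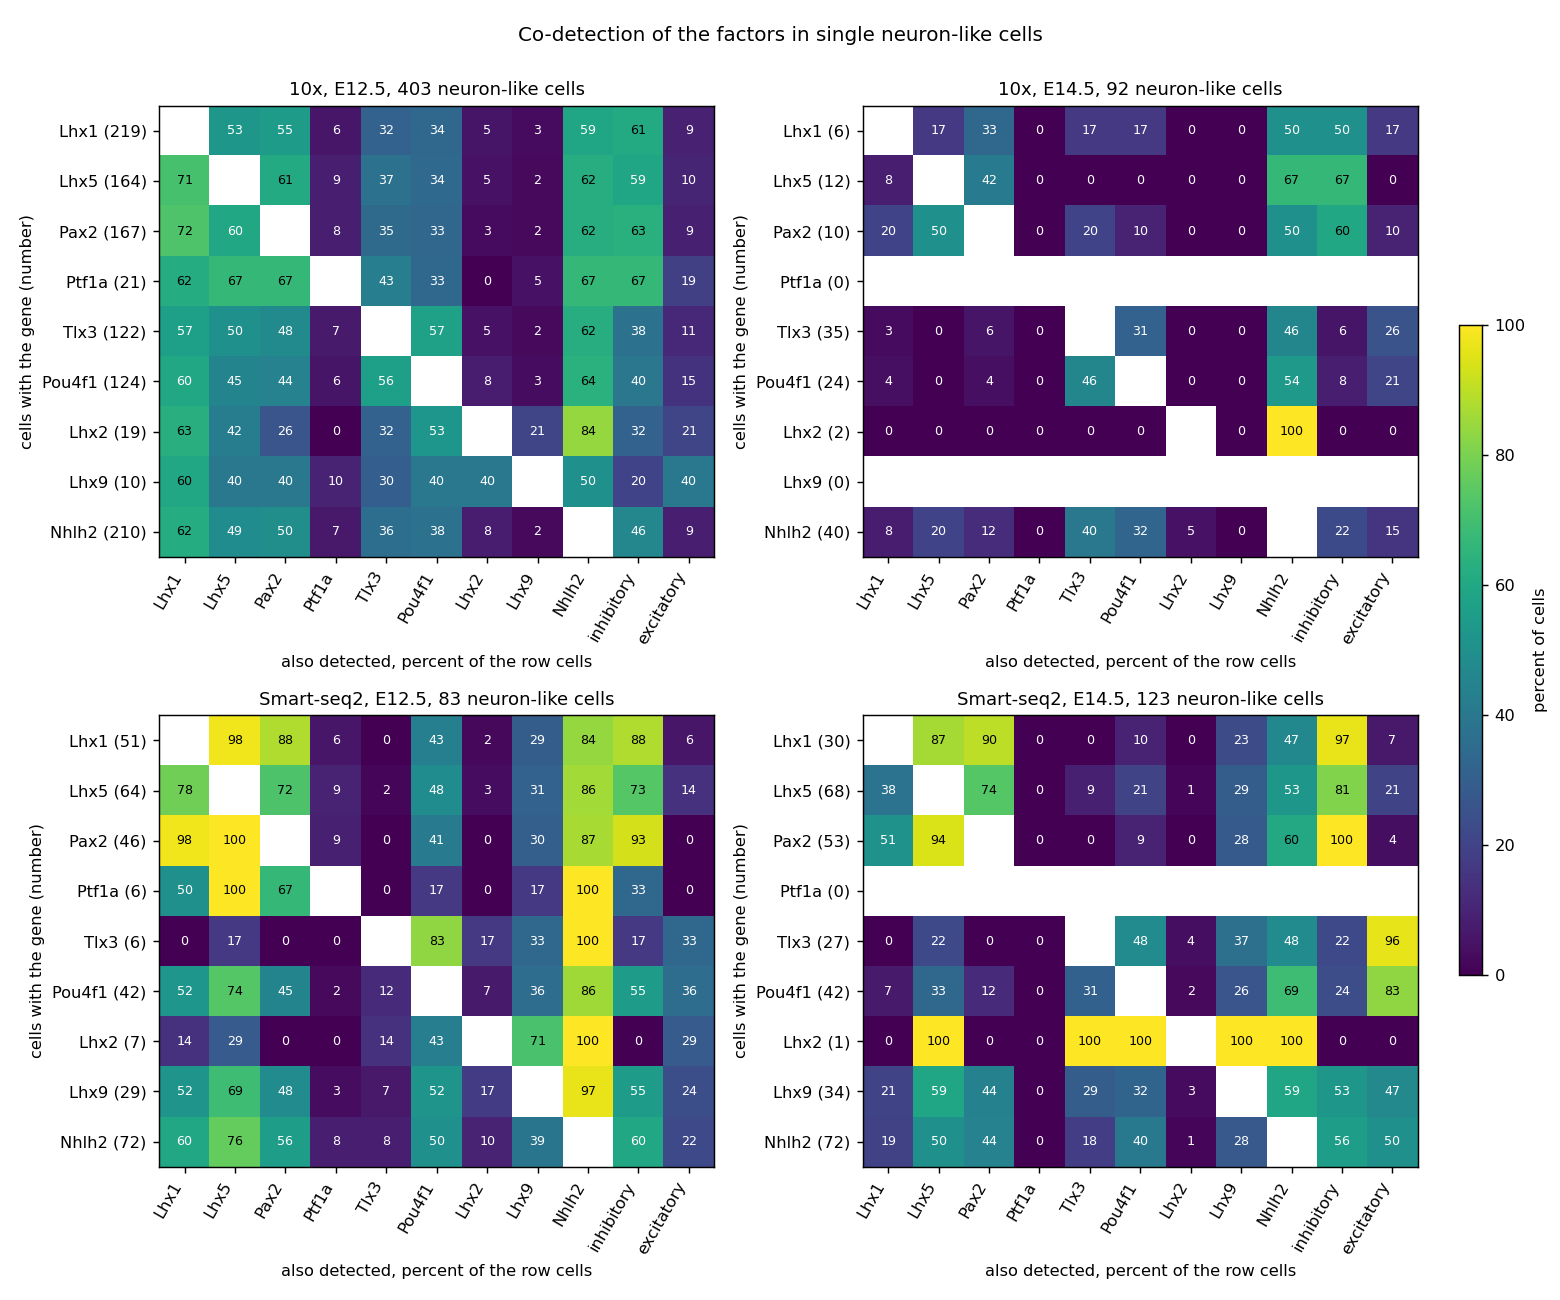
Co-detection in single neuron-like cells: each row is the set of cells with a count of 1 factor (number of cells in brackets), and each column gives the percent of those cells with a count of another factor, of an inhibitory gene (Gad1, Gad2 or Slc32a1) or of the excitatory gene Slc17a6. On Smart-seq2 Pax2 and Tlx3 share 0% of cells on both days, and on 10x at E12.5 34.7% of cells with Pax2 have Tlx3.

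Lhx2 and Lhx9 were found together in a few cells at E12.5. On Smart-seq2, 5 of 7 cells with Lhx2 had Lhx9, against 24 of 76 without, and at 10 or more counts 3 of 5 had it, against 4 of 78. Of the cells with Lhx2, 7 of 7 had Nhlh2, 0 of 7 Pax2 and 0 of 7 an inhibitory gene, so that the interval of either share reached 40.96%. On 10x, 4 of 19 cells with Lhx2 had Lhx9 (21.1%, 6.05 to 45.6%), against 1.56% of those without. Of the same cells, 12 of 19 had Lhx1, 5 of 19 Pax2 and 6 of 19 an inhibitory gene, so that the lack of inhibitory genes on Smart-seq2 was not seen on 10x.

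Ptf1a in neuron-like cells was found with factors of both sides on 10x. Pax2 was in 14 of 21 cells with Ptf1a and Tlx3 in 9 of 21 (42.9%, against 29.6% of those without), and an inhibitory gene was in 14 of 21 and Slc17a6 in 4 of 21 (19.05%, against 7.07%). On Smart-seq2, Lhx5 was in 6 of 6 cells with Ptf1a, Pax2 in 4 of 6, Tlx3 in 0 of 6 and an inhibitory gene in 2 of 6, against 50 of 77 cells without it. The 10x cells with Ptf1a had a median of 5851 UMIs, against 3059 in those without, and after thinning 3 cells with Ptf1a were left, of which 1 of 3 had Pax2 and 0 of 3 an inhibitory gene. In progenitor-like cells on Smart-seq2, 7 of 15 cells with Ptf1a had Lhx5, 4 of 15 had Nhlh2 and 1 of 15 had Pax2. Nhlh2 in neuron-like cells was spread over both sides, with Pax2 in 40 of 72 cells with Nhlh2 and 6 of 11 without on Smart-seq2 at E12.5.

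The genes whose levels ran most closely with each factor were sought among those outside the 9, across all neuron-like Smart-seq2 cells, by Pearson correlation of log2(CPM + 1) over 15997 genes. The values are descriptions over cells that share pools and differ in depth, and the correlation over neuron-like 10x cells is given second. Pax2 ran with the glycine transporter Slc6a5 (0.85, 0.26), with Gad2 (0.83, 0.32) and with Lamp5 (0.82, 0.32). Lhx5 ran with Slc6a5 (0.73, 0.20), with the synaptic adhesion gene Nrxn3 (0.72, 0.33) and with Gad2 (0.71, 0.25). Lhx1 ran with Atad2 (0.73, −0.01), Stap1 (0.69, 0.02) and Gad2 (0.67, 0.31), of which only Gad2 was also positive by more than 0.1 on 10x. Ptf1a ran with its known target Kirrel2 (0.76, 0.21), with Tril (0.60, 0.04) and with Nphs1 (0.56, 0.18), a neighbour of Kirrel2. Only 6 Smart-seq2 neuron-like cells had a count of Ptf1a, all of E12.5, so few cells carry its Smart-seq2 values.

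On the excitatory side the correlations were lower. Pou4f1 ran with Cacna2d1 (0.52, 0.17), Nrn1 (0.49, 0.21) and the glutamate transporter Slc17a6 (0.45, 0.13). Tlx3 ran with Lmx1b (0.45, 0.24), Prrxl1 (0.41, 0.27) and Syt10 (0.41, 0.02), of which Lmx1b and Prrxl1 are transcription factors of dorsal excitatory neurons. Lhx2 ran with Mfng (0.51, 0.07), a Notch-modifying enzyme, Txlnb (0.45, 0.14) and Myh14 (0.45, −0.01). Its Smart-seq2 values likewise rest on few cells, since 8 neuron-like cells had a count of Lhx2, 1 of them at E14.5. Nhlh2 ran with Rnd3 (0.51, 0.24), Mfap4 (0.48, 0.11) and Igsf8 (0.45, 0.14). Lhx9 had its highest value with Ggta1 (0.35, 0.00). Between the factors themselves the highest correlation on Smart-seq2 was 0.76, for Lhx5 with Pax2, and the lowest −0.46, for Pou4f1 with Pax2, where 10x gave 0.34 and −0.03. Lhx2 and Lhx9 had 0.51 on Smart-seq2 and 0.25 on 10x.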

How the data were processed

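The authors deposited 10x counts as UMIs per gene and cell, made with Cell Ranger against Ensembl GRCm38.p6. The authors deposited Smart-seq2 values as estimated counts (expected counts) per gene and cell, made with kallisto 0.44.0 against the Ensembl mouse transcriptome with YFP added (mm10 in the submitters' processing notes) and summed per gene with tximport. Per the study's methods, cells without YFP, with over 15000 10x counts, with fewer than 4000 Smart-seq2 genes or with over 8% mitochondrial counts had been left out. The mitochondrial limit was applied again, which removed 64 cells. Bulk libraries of sorted cells were not used here, and neither were the authors' integrated space or their own tests.

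Counts of both platforms were joined over shared genes and clustered with Seurat 5.3.0 in R 4.3.3, with 2000 variable genes, 30 principal components and a resolution of 0.8. Of 72 listed genes left out of the clustering, 64 were in the joint table. A cluster was named after a marker list when the list's mean z score was at least 0.8 and at least 3 markers were detected in 5% or more of cells, and the others stayed unnamed. Names were therefore rebuilt here and may differ from those of the study. Scrublet, run in scanpy 1.11.5, called 8 of 1017, 8 of 964 and 7 of 940 cells of the 10x libraries as doublets, and these were kept in the main analysis. Neuron-like cells numbered 403, 92 and 2 on 10x and 83, 123 and 7 on Smart-seq2 in the order of the days, and progenitor-like cells 128, 17 and 8 and 43, 11 and 5. On 10x at E12.5, 161 neuron-like cells were inhibitory, 20 excitatory, 11 both and 211 neither. At E14.5 these numbers were 20, 11, 2 and 59 on 10x and 56, 53, 11 and 3 on Smart-seq2, and on Smart-seq2 at E12.5 they were 45, 12, 7 and 19.

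Counts were summed per class and pool (sums of at least 20 cells), expected counts were rounded to whole numbers, and the sums were tested with edgeR 4.0.16 (TMM, filterByExpr, quasi-likelihood without bias adjustment of the deviances, Benjamini-Hochberg adjustment over all genes tested), with DESeq2 1.42.0 as an alternative. No replicates from separate embryos are labelled within a day and platform. The p-values therefore measure the spread between platforms, pools or plates, which may be technical. On simulated sums with known changes, the share of false calls of this test was above its threshold in every comparison but the one on plates, most of all in the comparison of the class difference between days. The last could be run only with sums of at least 10 cells, since no E14.5 progenitor-like pool reached 20. Alternatives were another normalization, no filter, other resolutions, keeping the listed genes in the clustering, removing doublets, leaving out pools, and plates as the unit. The bias-adjusted test and leaving out pools at 10 cells were added after seeing the data. Equal depth meant 1000 UMIs or 100000 counts per cell, and shallower cells were left out. Shares have exact binomial and levels exact Poisson 95% intervals.

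The 9 factors, the gene lists and the tests were chosen with earlier results of these data known. All 9 factors were named in each comparison. For likeness, the 3 genes of highest correlation were named among those with a count in at least 10 neuron-like Smart-seq2 cells (for Lhx9 only the first). Of each gene list, up to 4 genes with the largest called change were named. Some genes of these lists are not reported by name here.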

Additional observations from a re-analysis of the deposited data

Results flagged for a closer look

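In edgeR's interaction test of class and day on sums of at least 10 cells, which called 1.17% of 12711 genes, 4 factors were called. The adjusted p by edgeR was 0.0231 for Pou4f1, 0.0366 for Pax2, 0.0176 for Tlx3 and 0.0151 for Nhlh2. The E14.5 progenitor-like sums behind it came from 17 cells on 10x and 11 on Smart-seq2, in which these factors were at 0 or at most 1 UMI or 0.680 CPM, so the size and direction of the fitted difference are not read here. For Pax2 on 10x the ratio of neuron-like to progenitor-like had a lower limit of 0.703 at E14.5, beside an interval of 3.497 to 21.2 at E12.5. DESeq2 kept only Nhlh2 of the 4, and the bias-adjusted edgeR test called 0 genes, with 2619 at an unadjusted p under 0.05.

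For 4 factors the log2 ratio of the level in neuron-like cells at E14.5 to that at E12.5 had opposite signs on the platforms, and the difference between platforms was not tested. It was 0.84 on 10x and −1.03 on Smart-seq2 for Pou4f1, and −1.91 and 0.33 for Pax2. It was 0.18 and −9.11 for Lhx2, and 0.22 and −2.19 for Nhlh2, where the 10x interval of the ratio held 1 for both. The shares of cells with each of the 4 factors were lower at E14.5 on both platforms before depth was matched. On 10x the intervals of these shares overlapped for Pou4f1, Lhx2 and Nhlh2. At equal depth, in cells without Ptf1a, the Pou4f1 share was 11.6% at E12.5 and 20.9% at E14.5 on 10x. On Smart-seq2 it was 27.6% and 29.3%. The Nhlh2 share was then higher at E14.5 on 10x only (21.3% and 25.3%), and those of Pax2 and Lhx2 were lower on both platforms.

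Among the 4 E14.5 Smart-seq2 plates, 1 plate stood apart from the others for Pax2, at 362.2 CPM, and 1 for Lhx2, at 0.125 CPM with the others at 0. For Pax2, a gap of this size arises by chance in about 1 in 20 groups, and each factor with a count was screened. For Lhx2 that rate does not apply, since only 1 cell of 1 plate had a count.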

How the results depend on the processing

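Values in percent are the share of tested genes called at an adjusted p under 0.05. For neuron-like against progenitor-like cells (11.1%), clustering at resolution 1.2 gave 4.59%, and edgeR no longer called Lhx2 (adjusted p = 0.937), Lhx9 (0.475), Ptf1a (0.198), Tlx3 (0.418) and Nhlh2 (0.0769). For E14.5 against E12.5 (3.34%), DESeq2 gave 2.14% and Smart-seq2 plates 0.0152%, and at resolution 1.2 edgeR no longer called Lhx2 (adjusted p = 0.385) and Ptf1a (0.235). For inhibitory against excitatory cells (2.08%), DESeq2 gave 0.261% and sums of at least 10 cells 0.342%, and for the class difference between days (1.17%) DESeq2 gave 0.677% and no filter 1.7%. The bias-adjusted test, added after seeing the data, gave 0% in all 4 comparisons, with 28.6% for the classes at 10 cells and 0.91% for plates. Leaving out 1 pool at a time at 10 cells, also added then, gave 3.26% (without 10x E14.5) to 9.78% (without Smart-seq2 E12.5) for the classes, where leaving out Smart-seq2 E14.5 gave 7.91%. For the transmitter types it gave 0.0983% (without 10x E14.5) to 2.26% (without Smart-seq2 E12.5), with 0.279% without 10x E12.5 and 1.6% without Smart-seq2 E14.5. The direction turned for Pax2 between days on plates (log2 fold change 0.45, and 0.44 bias-adjusted) and for Lhx9 between transmitter types (0.63, bias-adjusted), none of which was called. The cause of these changes was not tested. Of the other values of single factors in these tests, 74 lost the call and 2 gained one. Of the shares of cells with a count, 36 left their interval, and of the co-detection shares 93 did at equal depth, 41 at 10 counts on Smart-seq2 and 12 at resolution 1.2. Leaving out pools could not be fitted at 20 cells, 10x alone holds 1 pool, and the transmitter test at resolution 1.2 and the class difference between days under other clusterings were not run. The fits of classes and of transmitter types were paired by pool. By replicate number, no paired analysis was possible because the sums carry none. In the pools under 20 cells, depth limits what a count of 0 shows.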
